A study of Rattus norvegicus with 20 samples.

Results

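The 10 circadian clock genes Clock, Npas2, Per1, Per2, Cry1, Nr1d1, Nr1d2, Dbp, Tef and Bhlhe40 were followed in rat liver. They were taken by annotated symbol, which gave 18 of the 31099 probe sets of the array and 10 of the 14217 genes with a single symbol. Liver RNA came from male Sprague-Dawley rats that were 4 weeks old on arrival, were acclimatised for 7 d under light between 7:00 and 19:00, and then ate 1 of 4 diets for 15 d. The diets were free of lignan or held 0.2% of sesamin, episesamin or sesamolin, furofuran lignans of sesame seed. Sesamin and episesamin are epimers, and sesamolin carries an ether oxygen between a methylenedioxyphenyl group and the furofuran ring. Each diet was fed to 7 rats, and 5 were put on arrays, since the heaviest and the lightest of each group were left out. Each array held the RNA of 1 rat. The spread within a diet therefore joins differences between animals with those of labelling and arrays, which cannot be told apart here. Spread and correlation between rats are meant in this sense. Rats were bled under ether, and neither the hour of killing nor the feeding state at killing is given in the sources used here. The comparison therefore asks whether the clock genes differed with diet, and how far single rats of a diet stood apart.

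The liver clock is a transcription loop. CLOCK, or its relative NPAS2, pairs with BMAL1 and turns on the Per, Cry, Nr1d1, Nr1d2, Dbp and Bhlhe40 genes through E-boxes. PER and CRY proteins then repress that activity, while the nuclear receptors NR1D1 and NR1D2 (REV-ERB alpha and beta) repress Bmal1 and Npas2. In nocturnal rodents the liver transcripts of Nr1d1 and Nr1d2 peak in the light phase and those of Per2 and Cry1 later, and feeding time can reset the liver clock apart from the light cycle.

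For the genes that moved together between rats, the 250 bases before the annotated start site were taken from RefSeq (build GRCr8) to show which clock motifs stand there. The RefSeq table held 11 such windows for 9 of the 10 genes, and Cry1 was not among them. The motifs searched on both strands were the E-box CACGTG, its variant CACGTT, the D-box TTATGTAA bound by DBP and TEF, the nuclear receptor half-site AGGTCA and the cAMP response element TGACGTCA. None of these overlapped another in the windows printed, where capitals mark the motif, and AACGTG is CACGTT read on the other strand.
Per2, chr9:99496994-99497243, minus strand, overlapping the annotated end of the gene span: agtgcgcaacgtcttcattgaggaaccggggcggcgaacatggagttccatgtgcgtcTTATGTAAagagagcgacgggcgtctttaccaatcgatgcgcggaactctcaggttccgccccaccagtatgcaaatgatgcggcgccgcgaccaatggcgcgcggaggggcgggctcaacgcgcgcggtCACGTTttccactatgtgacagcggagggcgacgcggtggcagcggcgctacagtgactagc
Nr1d1, chr10:84231813-84232062, minus strand, just upstream of the gene span: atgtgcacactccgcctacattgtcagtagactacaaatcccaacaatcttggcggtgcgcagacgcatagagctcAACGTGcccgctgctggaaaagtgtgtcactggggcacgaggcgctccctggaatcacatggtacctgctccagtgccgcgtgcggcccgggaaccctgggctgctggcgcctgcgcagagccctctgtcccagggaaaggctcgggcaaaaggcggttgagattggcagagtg
Nr1d1, chr10:84229455-84229704, minus strand, before another start site inside the gene span: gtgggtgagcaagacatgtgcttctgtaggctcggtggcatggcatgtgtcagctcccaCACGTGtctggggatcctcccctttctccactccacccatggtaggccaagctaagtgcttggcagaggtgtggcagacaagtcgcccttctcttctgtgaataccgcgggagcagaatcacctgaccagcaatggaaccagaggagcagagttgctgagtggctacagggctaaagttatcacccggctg
Nr1d2, chr15:9954784-9955033, plus strand, just upstream of the gene span: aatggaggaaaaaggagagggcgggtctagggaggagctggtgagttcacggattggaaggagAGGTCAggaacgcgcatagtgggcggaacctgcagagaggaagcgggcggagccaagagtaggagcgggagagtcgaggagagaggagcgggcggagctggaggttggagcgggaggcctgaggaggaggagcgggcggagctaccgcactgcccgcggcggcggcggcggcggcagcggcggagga
Bhlhe40, chr4:143174200-143174449, plus strand, just upstream of the gene span: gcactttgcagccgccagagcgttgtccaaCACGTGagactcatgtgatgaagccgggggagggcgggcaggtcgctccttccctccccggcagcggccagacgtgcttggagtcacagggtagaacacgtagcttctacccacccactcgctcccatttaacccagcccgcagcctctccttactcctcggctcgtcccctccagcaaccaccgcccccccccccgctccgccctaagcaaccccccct

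Per2 lies on the minus strand, so the end of the span that its window overlaps is the side where transcription starts. The Per2 window held the variant E-box 62 bases and the D-box 192 bases before its start site. The Nr1d1 windows held a variant E-box at 174 bases and an E-box at 191 bases, the Bhlhe40 window an E-box at 220 bases, and the Nr1d2 window a half-site at 187 bases. Tef, whose window is not printed, held an E-box at 198 bases, and no motif of the 5 was found in the windows of Clock, Npas2, Per1 or Dbp. The windows of Tef, Per1 and Npas2 lay inside their gene spans, before start sites there, and so did a Clock window. Of all 33469 RefSeq windows of this length, 5.59% held the E-box, 4.07% the variant, 0.828% the D-box, 14.1% the half-site and 1.59% the cAMP response element, which was in 0 of the 11 clock gene windows. A match describes the letters only.

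Values are quantile-normalized intensities of the probe set with the highest mean level of each gene, and a level below 17.8 (the 40th percentile of all values) is treated as close to the floor of the assay. Array means before normalization ran from 159 to 271, and 6 arrays lay below 200, with 1 lignan-free, 1 sesamin, 2 episesamin and 2 sesamolin arrays among them. Of 10 hepatocyte markers 9 were measured, and all 9 were above 17.8 on every array. In whole liver, fewer cells of a type and less RNA per cell cannot be told apart. All 10 clock genes passed the low-level filter. Intensities of different probe sets were not set against each other.

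Clock, the core activator, was the steadiest of the 10 genes on the probe sets used. Its intensity ran from 144 to 188 in lignan-free, 165 to 210.3 in sesamin, 146 to 179 in episesamin and 158 to 222 in sesamolin livers. Npas2, the Clock relative, ran from 128 to 191, 105 to 209.9, 114 to 186 and 114 to 232 in the same order of diets. The ranges of the 4 diets overlapped for both activators.

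Per2, a repressor of the loop, spread widely inside every diet. In lignan-free rats 1 to 5 its intensity was 191, 74.0, 28.6, 31.6 and 66.0. In sesamin rats it was 118, 61.8, 16.9, 20.6 and 63.7, and in episesamin rats 76.7, 29.8, 17.8, 93.0 and 109. In sesamolin rats it was 39.4, 43.4, 16.9, 44.5 and 2.07. Per2 was thus high in rat 1 and low in rats 3 and 4 of both the lignan-free and sesamin groups, while sesamolin rat 5 stood lowest of all 20, and 4 of the 20 arrays lay below 17.8.

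Cry1, the partner of the PER proteins, was well above the floor on all 20 arrays. Its intensity was 330.2, 177, 145, 132 and 218 in lignan-free rats 1 to 5 and 350.1, 185, 94.7, 116 and 173 in sesamin rats. It was 242, 125, 99.8, 272 and 241 in episesamin rats and 195, 148, 112, 128 and 124 in sesamolin rats. Within each diet the rats with high Cry1 were largely those with high Per2, and the 4 diets overlapped. Per1, another repressor, ran from 13.8 to 97.4 in lignan-free, 10.8 to 70.5 in sesamin, 21.3 to 75.5 in episesamin and 11.1 to 77.0 in sesamolin livers, with 13 of 20 arrays above 17.8.

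Nr1d1, the REV-ERB alpha repressor, had a spread as wide as that of Per2, in the other direction. Its intensity was 18.8, 23.4, 30.7, 65.0 and 12.2 in lignan-free rats 1 to 5 and 8.62, 31.8, 55.8, 113 and 57.5 in sesamin rats. It was 15.1, 72.9, 132, 35.9 and 18.7 in episesamin rats and 28.1, 66.1, 188, 19.2 and 88.9 in sesamolin rats. Rat 3 was the highest in the episesamin and sesamolin groups and rat 4 in the others, the groups overlapped, and 17 of 20 arrays were above 17.8.

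Nr1d2, its paralogue REV-ERB beta, followed the same rats. Its intensity was 65.0, 75.5, 133, 128 and 60.4 in lignan-free rats 1 to 5 and 53.9, 54.7, 154, 209.7 and 81.7 in sesamin rats. It was 79.2, 133, 189, 72.7 and 51.6 in episesamin rats and 69.3, 135, 142, 85.2 and 155 in sesamolin rats. Lignan-free rats 3 and 4, sesamin rats 3 and 4 and episesamin rats 2 and 3 were high for Nr1d2 and low for Per2.

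Dbp, an output regulator that binds D-boxes, was dim. Its intensity ran from 2.43 to 28.0 in lignan-free, 5.34 to 27.6 in sesamin, 10.4 to 32.3 in episesamin and 2.16 to 28.4 in sesamolin livers, and only 11 of 20 arrays were above 17.8. Tef, a related D-box factor, ran from 77.4 to 104, 76.4 to 105, 61.6 to 132 and 62.5 to 113 in the same order. Bhlhe40, a repressor that competes at E-boxes, read 444, 283, 368, 262 and 296 in lignan-free rats 1 to 5 and 328, 582, 187, 139 and 471 in sesamin rats. It read 230.4, 325, 179.9, 270.1 and 543 in episesamin rats and 371, 394, 166, 252 and 130.2 in sesamolin rats. None of these 3 genes separated a lignan diet from the lignan-free one.

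**Figure D1:**
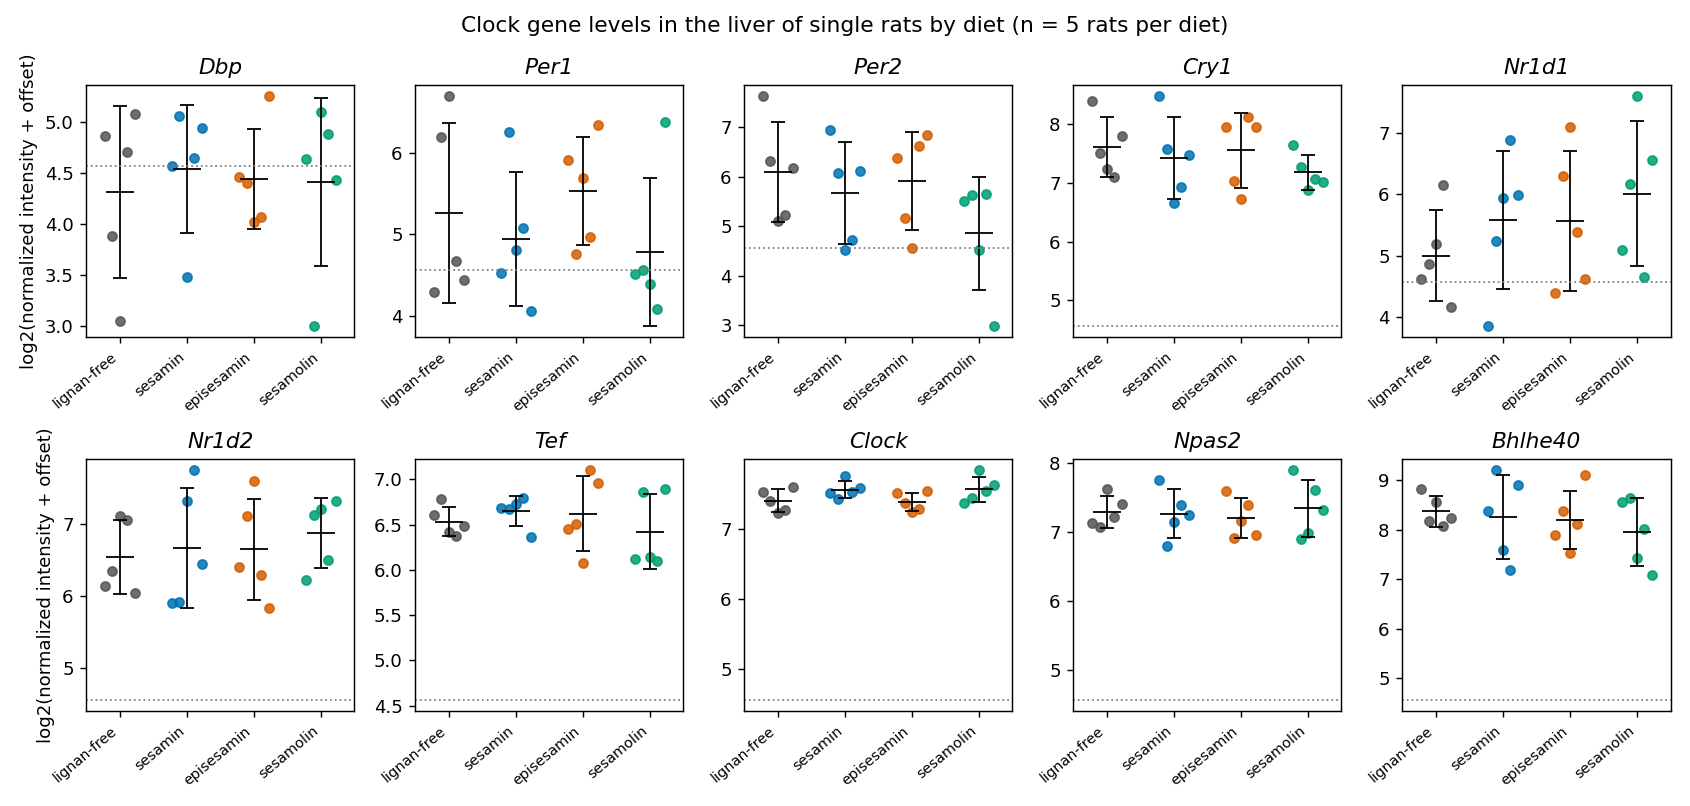
Levels of the 10 clock genes in single livers, 1 panel per gene, as log2 of the normalized intensity plus an offset of 5.85 (each panel has its own axis); points are rats (n = 5 per diet), bars the mean and SD, and the dotted line the level of 17.8. The 4 diets overlap in every panel, and the points of Per2, Per1, Nr1d1 and Nr1d2 spread far more than those of Clock.

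No clock gene passed the test of a difference between diets. In limma's moderated test (adjusted over 11576 genes, two-sided, n = 5 rats per diet), 0 of the 10 genes passed an adjusted p of 0.05 in any of the 6 comparisons, and 0 of the 60 tests had an unadjusted p below 0.05. Over all genes tested, 0.432% were called for sesamin, 5.12% for episesamin and 6.24% for sesamolin against the lignan-free diet. The shares were 1.23% for episesamin against sesamin, 1.81% for sesamolin against sesamin and 0% for sesamolin against episesamin. Unadjusted, 7.46%, 19.7%, 20.3%, 12.9%, 14.5% and 5.72% of all genes were below 0.05 in the same order. An F test over the 4 diets called 4.89% of genes and 0 clock genes, with limma adjusted p from 0.499 to 0.981 for the 10. The count of clock genes with groups that did not overlap was 0 in each comparison, against 1.91%, 6.85%, 6.92%, 3.64%, 4.29% and 0.795% of all genes.

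The largest estimated difference belonged to Per2, which was -1.23 ± 0.62 (log2, SE) in sesamolin against lignan-free livers, with a 95% interval of -2.53 to 0.06 and a limma adjusted p of 0.272. Nr1d1 differed in the opposite sense by 1.01 ± 0.63, with an interval of -0.30 to 2.32 and a limma adjusted p of 0.385. For Cry1 the same comparison gave -0.43 (interval -1.13 to 0.26), for Bhlhe40 -0.42 (-1.22 to 0.37) and for Nr1d2 0.34 (-0.47 to 1.14). All of these intervals include 0. Sesamolin rat 5, at 2.07, lay below 17.8 and was the lowest of the sesamolin Per2 values, so it enlarged the Per2 difference. Over the 10 genes the median log2 difference was 0.04, 0.04 and -0.03 for sesamin, episesamin and sesamolin against the lignan-free diet, beside -0.01, -0.02 and -0.01 over all genes.

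The width of the intervals differed between the genes, each read from 1 probe set. Clock was held to between -0.06 and 0.37 for sesamin, -0.23 and 0.20 for episesamin, and -0.06 and 0.38 for sesamolin (log2, against lignan-free). Npas2 was held to between -0.44 and 0.39, -0.51 and 0.33, and -0.36 and 0.47. For Per2 with sesamin the interval ran from -1.71 to 0.88, and for Nr1d1 with episesamin from -0.75 to 1.87, so for these genes the intervals include changes of over 2-fold. The interval stayed within a 2-fold change either way for 6, 6 and 4 of the 10 genes for sesamin, episesamin and sesamolin.

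**Figure D2:**
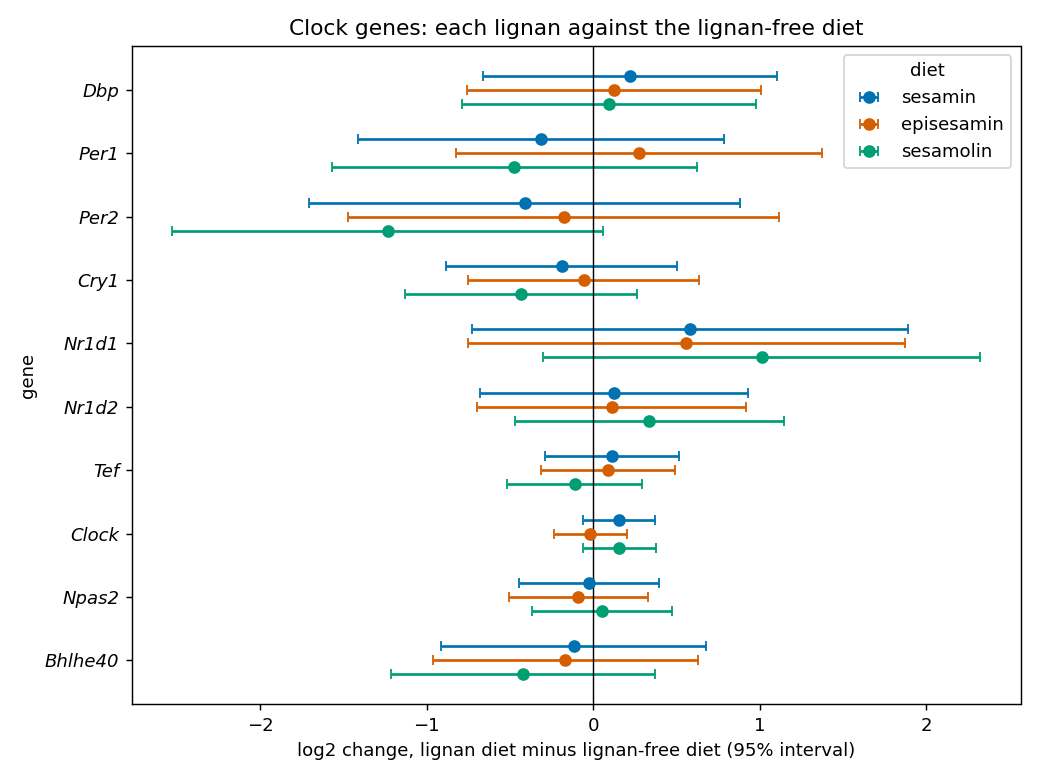
Log2 difference of each lignan diet from the lignan-free diet for the 10 clock genes, with 95% intervals from limma on the 20 arrays (5 rats in each diet). Every interval crosses 0, and the intervals of Clock, Tef and Npas2 are the narrow ones.

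The 3 lignans were compared with each other at the same 0.2% dose and 15 d. Across the epimer pair, episesamin minus sesamin was 0.24 for Per2 (interval -1.06 to 1.53), -0.02 for Nr1d1 (-1.34 to 1.29) and 0.59 for Per1 (-0.51 to 1.69), in log2. Sesamolin minus sesamin was -0.82 for Per2 (-2.12 to 0.47) and 0.43 for Nr1d1 (-0.88 to 1.74). Sesamolin minus episesamin was -1.06 for Per2 (-2.35 to 0.24) and -0.75 for Per1 (-1.84 to 0.35). The lowest limma adjusted p over these comparisons was 0.5095 (Clock, episesamin against sesamin), and missing the threshold does not show that the compounds act alike. The interval lay within a 2-fold change for 7, 4 and 4 of the 10 genes in the 3 pairs.

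Between the arrays of a diet, these genes other than Clock varied more than most genes. The SD within diets, pooled over the 4 diets, was 1.06 for Nr1d1, 1.05 for Per2, 0.89 for Per1, 0.71 for Dbp, 0.65 for Nr1d2 and 0.64 for Bhlhe40 on the log2 scale, beside a median of 0.26 over all genes. These 6 genes lay above the 90th percentile of all genes (99.7, 99.7, 99.3, 96.0, 93.4 and 92.9). Cry1 had an SD of 0.56, Npas2 0.33, Tef 0.32 and Clock 0.15, the last at the 15.8th percentile. Dim genes spread more on this scale, so each was also ranked among the 500 genes nearest in level. There Nr1d1, Per1, Per2, Nr1d2, Bhlhe40 and Cry1 lay at percentiles 100, 99.6, 99.4, 99.2, 99.0 and 97.8, Npas2 and Dbp at 88.8 and 88.4, and Clock at 16.2. Differences between arrays of the same diet made up 72.7% (Clock) to 98.5% (Dbp) of each gene's variance. With few diets and several rats in each, most of a gene's variance lies within diets even where diet has no effect. The share was not set against that of all genes, so it does not show an unusual spread.

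**Figure D3:**
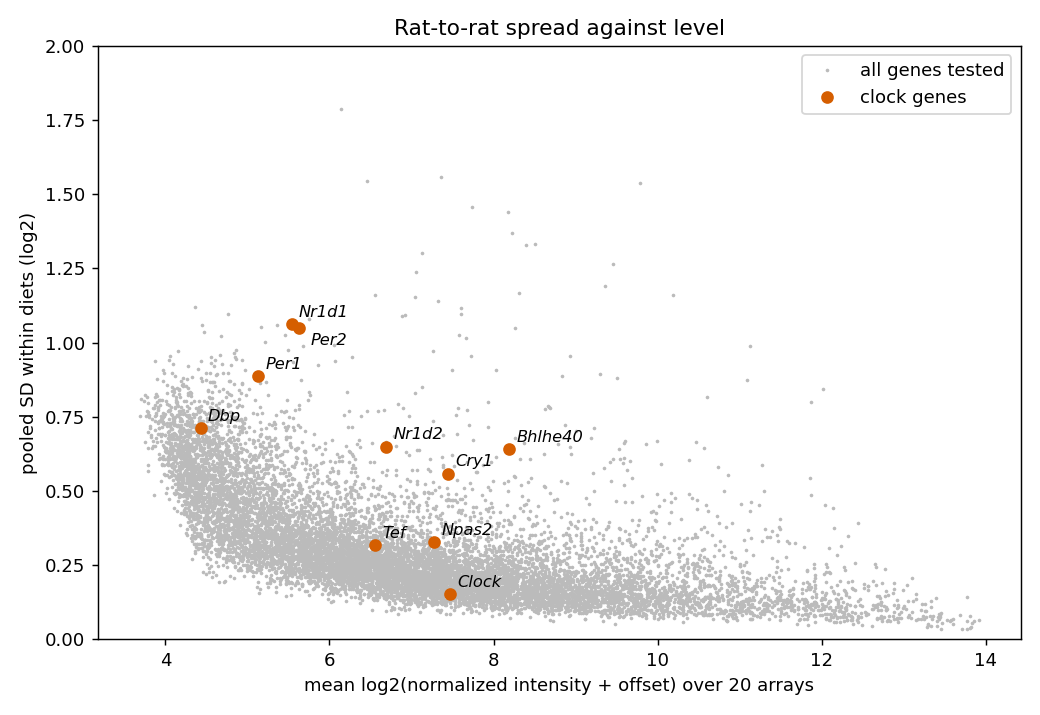
Pooled SD within diets (log2) against mean log2 level over 20 arrays for the 11576 genes tested (grey) and the 10 clock genes (orange); 5 genes with an SD above 2 are off the plot. Nr1d1, Per2 and Per1 lie at the upper edge of genes of their level, and Clock lies among the steady ones.

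Clock genes moved together from rat to rat. After each diet's mean was taken away, 8 of the 45 pairs correlated over the 20 rats (Pearson, rats permuted within diets 100000 times, two-sided, adjusted over the 45 pairs), 3 positively and 5 negatively, or 17.8% of the pairs. Over all pairs of the 11576 genes, 0.475% reached an absolute r of 0.70, the smallest among the 8. The 8 pairs joined 5 genes, in 2 opposed sets: Per2, Cry1 and Bhlhe40 on one side and Nr1d1 and Nr1d2 on the other. All 8 had the same sign in 4 of 4 diets. The other 2 pairs among these 5 genes, Cry1 with Bhlhe40 (r = 0.54, permutation adjusted p = 0.158) and Nr1d1 with Bhlhe40 (-0.51, permutation adjusted p = 0.219), did not pass. The permutation takes the rats of a diet as exchangeable, while deviations of Per2, Cry1, Nr1d1 and Nr1d2 followed the replicate number in part.

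Nr1d1 and Nr1d2 rose and fell together, with r = 0.84 and rho = 0.83 (permutation p = 1e-05 for each, the smallest these permutations can give, adjusted 0.00045). Both lay on the same side of their diet mean in 19 of 20 rats. Without the 2 rats farthest from the Nr1d1 median r was 0.85, and it was 0.85 in the 14 brighter and 0.86 in the 6 dim arrays. Per2 and Cry1 also moved together, with r = 0.85 and rho = 0.83 (permutation p = 2e-05 and 6e-05, adjusted 0.00045 and 0.0009). They shared a side in 18 of 20 rats. The r was 0.90 without the 2 farthest rats, 0.92 in the brighter and 0.76 in the dim arrays.

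The repressors of the PER and CRY kind ran opposite to the REV-ERB genes. Per2 against Nr1d2 gave r = -0.84 and rho = -0.81 (permutation p = 4e-05 and 8e-05, adjusted 0.000562 and 0.0009), with the genes on opposite sides of their means in 19 of 20 rats. Its r was -0.84 without the 2 farthest rats, -0.89 in the brighter and -0.72 in the dim arrays. Cry1 against Nr1d2 gave r = -0.85 and rho = -0.86 (permutation p = 5e-05 and 4e-05, adjusted 0.000562 and 0.0009), opposite in 17 of 20 rats. The r was -0.81 without the 2 farthest rats, -0.85 in the brighter and -0.84 in the dim arrays. These pairs were called under each alternative run.

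Nr1d1 gave the same order less tightly. Cry1 against Nr1d1 had r = -0.77 and rho = -0.79 (permutation p = 0.00026 and 0.00025, adjusted 0.00234 and 0.00225), opposite in 16 of 20 rats. Its r was -0.66 without the 2 farthest rats, -0.75 in the brighter and -0.87 in the dim arrays. Per2 against Nr1d1 had r = -0.73 and rho = -0.76 (permutation p = 0.0013 and 0.00068, adjusted 0.00975 and 0.0051), opposite in 18 of 20 rats. Its r was -0.71 without the 2 farthest rats, -0.77 in the brighter and -0.69 in the dim arrays. Both calls ended with the replicate number as a block (r = -0.52 and -0.55, permutation adjusted p = 0.135 and 0.154) and without the 4 arrays numbered 1 (permutation adjusted p = 0.0535 and 0.0955). The Cry1 call also ended without the 6 dim arrays (permutation adjusted p = 0.0507).

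**Figure D4:**
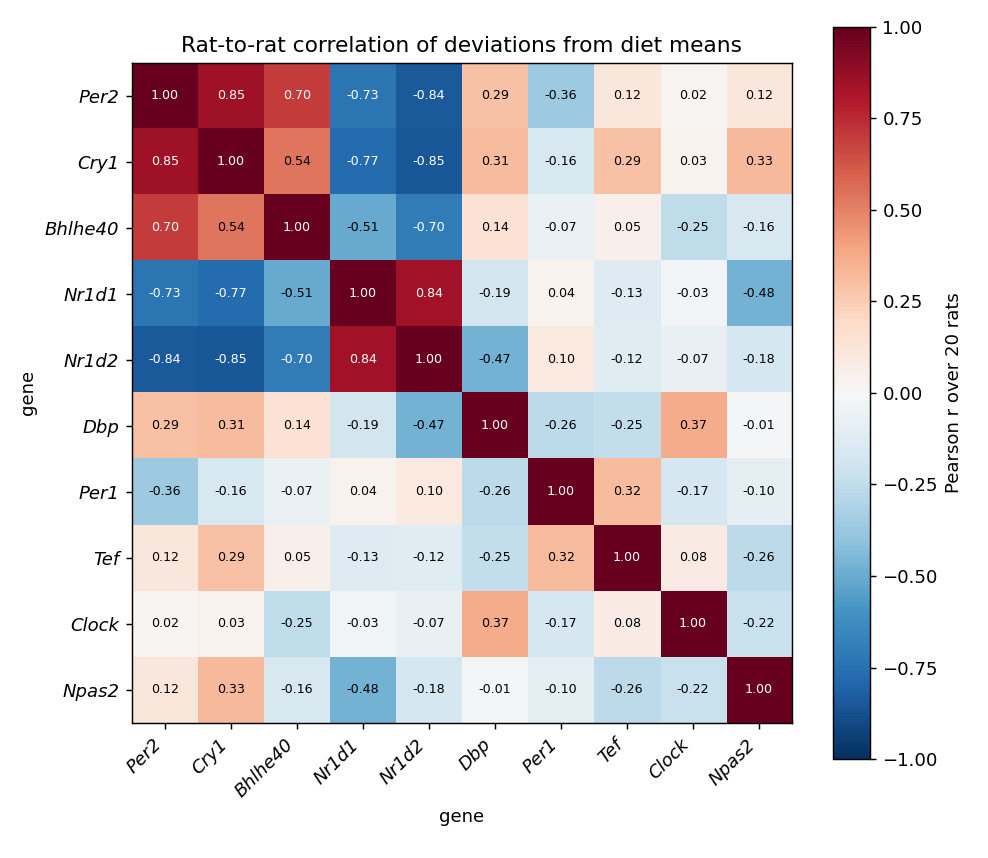
Pearson r between clock genes over 20 rats, computed on log2 deviations from the diet means (red positive, blue negative). The upper left block holds Per2, Cry1 and Bhlhe40 against Nr1d1 and Nr1d2, with r from -0.85 to 0.85, and the lower right block of the other 5 genes is pale.

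Bhlhe40 followed this pattern less closely. It followed Per2 with r = 0.70 and rho = 0.65 (permutation p = 0.00198 and 0.00543, adjusted 0.0127 and 0.0349). The r was 0.60 without the 2 farthest rats, 0.71 in the brighter and 0.78 in the dim arrays, and the call ended without sesamolin rat 5 (r = 0.64, permutation adjusted p = 0.0541). It ran against Nr1d2 with r = -0.70 and rho = -0.65 (permutation p = 0.00459 and 0.0092, adjusted 0.0258 and 0.0517). There r was -0.58 without the 2 farthest rats, -0.78 in the brighter and -0.64 in the dim arrays. That call ended without any 1 of sesamin rats 2 and 4, episesamin rats 3 and 5, and sesamolin rats 1 and 5, with permutation adjusted p from 0.0541 to 0.0804. Both Bhlhe40 calls also ended without the dim arrays (permutation adjusted p = 0.134 and 0.128) and without the arrays numbered 1 (0.0676 and 0.0955).

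**Figure D5:**
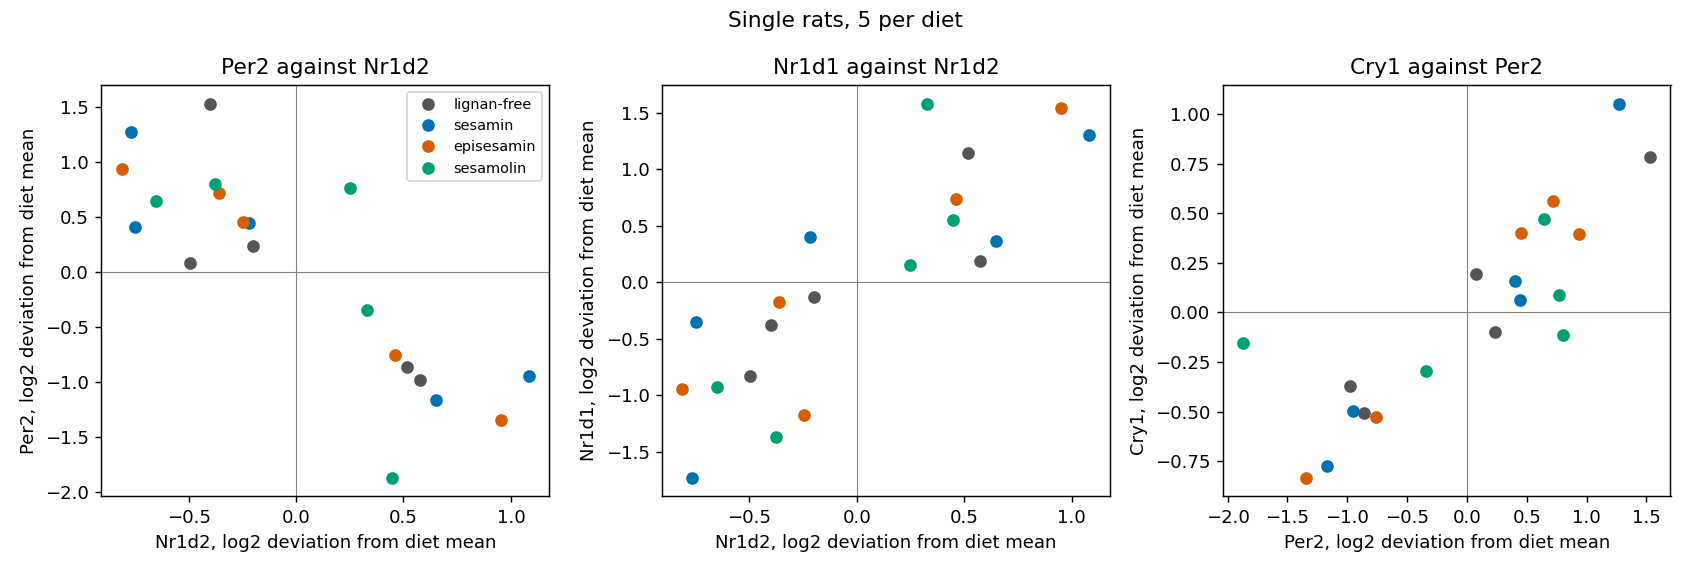
Log2 deviation from the diet mean in single rats (n = 20, coloured by diet) for Per2 against Nr1d2, Nr1d1 against Nr1d2 and Cry1 against Per2. Per2 and Nr1d2 lie on opposite sides of 0 in 19 of 20 rats, and rats of all 4 diets stand at both ends.

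Dbp, Per1, Tef, Clock and Npas2 took part in 35 pairs, of which 0 passed by permutation and 1 had an unadjusted p below 0.05, Dbp with Nr1d2 (r = -0.47, permutation p = 0.0373, adjusted 0.168). Over the 35 pairs r ran from -0.48 to 0.37. Dbp lay near the floor on 9 arrays and Per1 on 7, which limits what their correlations could show. Probe sets of a gene did not always follow each other. For Nr1d2 the other probe sets followed the chosen one with r of 0.95 and 0.78, while r was 0.16 for the other Per2 set, 0.02 and 0.30 for Tef, and 0.27, 0.28 and 0.03 for Clock. The other Per2 set, 1 of the Tef sets and 1 of the Clock sets did not pass the level filter. In a fit of all probe sets 0 of the 15 clock gene sets that passed were called. Their lowest limma adjusted p was 0.0699, for the Clock set with r of 0.03 to the chosen one. That set lay above 17.8 on all 20 arrays.

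The genes whose rat-to-rat pattern was most like a clock gene were sought over all 11576 genes and 20 rats. Nr1d1 was followed most closely by Sds (r = 0.86), the liver serine dehydratase that breaks down an amino acid, then by Tns2 (0.84), Kifbp (0.83) and Actr1b (0.82), and inversely by Ubr1 (-0.82). Per2 was followed by Lama3 (0.87) and Dck (0.85), and inversely by Fzd8 (-0.86), Mt2A, a metallothionein (-0.85), and H6pd (-0.83). Per1 was followed by Fshb (0.82), near the floor on 6 arrays, and Mlycd (0.79), and inversely by Ckap5 (-0.82), Kank1 (-0.81) and Dad1 (-0.79). An absolute r of at least 0.8 was reached by 22 genes with Per2, 13 with Nr1d1 and 3 with Per1. These were 0.19%, 0.112% and 0.0259% of the 11575 other genes tested, none passed over. The genes named were picked for their likeness, so the r values are descriptions.

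Genes that mark fasting, feeding, glucocorticoid action, body temperature and immediate early response were set against the 10 clock genes across rats. Other clock and clock-controlled genes were among the measures too. Of 760 relations (10 clock genes with 76 measures, 66 of them genes), 15 passed an adjusted p of 0.05 by permutation of rats within diets, or 1.97%, and 12 did so by rho as well. They involved 6 clock genes, and 3 of the 15 were called without each array in turn. The 1.97% was not set against a share over all genes, so it does not show that the listed genes stood out. Sds, raised in fasting, rose with Nr1d1 (r = 0.86, rho = 0.89, permutation p = 2e-05 and 1e-05, adjusted 0.0152 and 0.0076), with 0.83 without the 2 farthest rats, 0.88 in the brighter and 0.92 in the dim arrays. It also rose with Nr1d2 (r = 0.85, rho = 0.78, permutation p = 9e-05 and 0.00067, adjusted 0.0171 and 0.0462), with 0.78, 0.84 and 0.94 in the same order. Mt2A, raised by glucocorticoids, ran against Per2 (r = -0.85, rho = -0.77, permutation p = 5e-05 and 0.00023, adjusted 0.0171 and 0.0365), with -0.85, -0.85 and -0.82. Sds spanned 31.8 to 1224 and Mt2A 88.3 to 757 over the 20 livers. Without the 6 dim arrays these 3 had r of 0.88, 0.83 and -0.86 and permutation adjusted p of 0.24, 0.24 and 0.267. Of the glucocorticoid list, no gene other than Mt2A was called with a clock gene.

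Srebf1, the lipogenic regulator that feeding raises, ran with Per2 (r = 0.77, rho = 0.81, permutation p = 8e-05 and 5e-05, adjusted 0.0171 and 0.019), with 0.79 without the 2 farthest rats, 0.82 in the brighter and 0.74 in the dim arrays. It ran against Nr1d2 (r = -0.84, rho = -0.81, permutation p = 0.00017 and 0.00062, adjusted 0.0215 and 0.0462), with -0.76, -0.84 and -0.92. In sesamin rats 1 to 5 Srebf1 was 2890.3, 2580.2, 1684, 1277 and 3006, so the rats with the highest Nr1d2 had the lowest Srebf1. The first call ended without lignan-free rat 1 (permutation adjusted p = 0.0628) or episesamin rat 3 (0.054). The second ended without sesamin rat 3 (0.0518) or 4 (0.0625) or episesamin rat 3 (0.0546) or 5 (0.0519). Among the 10 other relations, Bhlhe40 rose with Fgf21 of the fasting list (r = 0.74, permutation adjusted p = 0.0415). It also rose with Pnpla3 and Thrsp of the feeding list (r = 0.78 and 0.71, permutation adjusted p = 0.0293 and 0.0418). Cpt1a of the fasting list ran against Per2 (r = -0.74, permutation adjusted p = 0.0346). Cry2 with Per2 (r = 0.80, permutation adjusted p = 0.0342) and Csnk1d with Dbp (-0.71, 0.041) were relations with other clock genes. No fasting gene other than Sds was called with Nr1d1 or Nr1d2. Likewise, no feeding gene other than Srebf1 was called with Per2, Cry1, Nr1d1 or Nr1d2. The 10 other relations each ended without at least 1 array.

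Array brightness and RNA quality were set against the clock genes in the same way. Over the 10 genes, r with log2 brightness ran from -0.52 (Per1) to 0.57 (Dbp), with a lowest permutation adjusted p of 0.183, and r with the actin 3' to 5' ratio from -0.42 to 0.42. For the summed Kupffer cell markers r ran from -0.57 (Bhlhe40) to 0.62 (Nr1d2), and for the stellate cell markers from -0.54 (Dbp) to 0.55 (Per1), with lowest permutation adjusted p of 0.195 and 0.201. The lowest permutation adjusted p of any marker sum was 0.161, for the exocrine pancreas and adipocyte list (1 of 6 genes measured), with r from -0.60 (Dbp) to 0.55 (Nr1d2). The 7 Kupffer markers measured of 8 were above 17.8 on all arrays, and their sum ran from 4054 to 4500 in lignan-free, 2909 to 4861 in sesamin, 3054 to 4014 in episesamin and 2800 to 3684 in sesamolin livers. Summed endothelial markers (5 of 6 measured) ran from 2534 to 2967 in lignan-free livers, above the 2017 to 2327 of episesamin and the 1964 to 2440 of sesamolin livers with no overlap. Summed bile duct markers (3 of 5 measured, 1 of them above 17.8 on all arrays) ran from 190.5 to 254 in lignan-free and 271 to 326 in sesamolin livers, also with no overlap. Among single genes, 6.85% did not overlap between lignan-free and episesamin livers, and 6.92% between lignan-free and sesamolin livers. The part of other cells in the correlations and in the differences between diets was not tested.

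Of 29 other clock and clock-controlled genes listed, 20 were measured. Against the lignan-free diet, limma called 0 of these 20 with sesamin, 0 with episesamin and 2 with sesamolin (1, 5 and 4 at an unadjusted p below 0.05), beside 0.432%, 5.12% and 6.24% of all genes. With sesamolin Rora, a receptor that activates Bmal1, was higher by 0.48 ± 0.13 (limma adjusted p = 0.0314) and Alas1, the first enzyme of haem synthesis, by 0.53 ± 0.16 (limma adjusted p = 0.049). With episesamin the values were 0.34 ± 0.13 for Rora and 0.51 ± 0.16 for Alas1 (limma adjusted p = 0.143 and 0.0658), and sesamolin against episesamin did not pass for either gene (0.955 and 0.998). The Rora difference was 0.19 with the mean of its probe sets and 0.23 with no normalization between arrays (limma adjusted p = 0.613 and 0.559). The Rora call also ended without lignan-free rat 1, 2, 4 or 5 or sesamolin rat 3, 4 or 5 (limma adjusted p from 0.0523 to 0.0805). The Alas1 call was lost in 28 of 36 alternatives, single arrays of all 4 diets among them. Cyp7a1, the rate-limiting enzyme of bile acid synthesis, stood at -1.57 ± 0.46 with episesamin (limma adjusted p = 0.0515).

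Of 13 measured genes raised in fasting, limma called 0 higher with sesamin, 2 with episesamin and 2 with sesamolin, and 0 lower. At an unadjusted p below 0.05 in limma there were 2, 6 and 5. Over all genes 0.432%, 5.12% and 6.24% were called in the same order, and 7.46%, 19.7% and 20.3% unadjusted. The median log2 change of the 13 was 0.11, 0.37 and 0.34, beside -0.01, -0.02 and -0.01 over all genes. Pdk4, which spares glucose, rose by 1.67 ± 0.29 with episesamin and 1.57 ± 0.29 with sesamolin (limma adjusted p = 0.00182 and 0.00288). Angptl4, a lipase inhibitor, rose by 1.14 ± 0.27 with episesamin (limma adjusted p = 0.0191) and also passed with sesamolin (0.0346). The episesamin call ended without lignan-free rat 4 (0.0536), and the sesamolin call without lignan-free rat 1, 2 or 4 or sesamolin rat 1, 2, 3 or 5 (0.0541 to 0.0848). Cyp17a1 and Cpt1a, not called, stood at 0.96 and 0.37 with episesamin and 0.83 and 0.51 with sesamolin. Pck1 and Tat, not called either, stood at -0.26 and -0.40 with episesamin and -0.06 and -0.03 with sesamolin. Of 12 measured genes raised by feeding, 1 was lower with sesamin, 2 with episesamin and 1 with sesamolin. At an unadjusted p below 0.05 in limma there were 6, 3 and 3 of the 12, in either direction. The median log2 change of the 12 was -0.45, -0.10 and -0.11. Pklr, a glycolytic kinase, fell by 1.05 ± 0.13 with episesamin (limma adjusted p = 5.8e-05) and was also lower with sesamolin (0.0001). With sesamin Pklr stood at -0.64 (0.0371), a call lost in 18 of 36 alternatives, 12 of them single arrays left out. Acaca, of fatty acid synthesis, fell by 0.69 with episesamin, and that call ended without lignan-free rat 4 (0.0563). Me1, of the same pathway, was the 1 gene of this list called higher, by 0.73 ± 0.19 with sesamolin (limma adjusted p = 0.0286), and that call was lost in 10 of 36 alternatives. The lists of glucocorticoid (9 measured), body temperature (6) and immediate early genes (8) had 0 calls in any comparison in limma, with at most 0, 1 and 2 genes at an unadjusted p below 0.05 in a comparison. The median log2 change of the 20 other clock genes was 0.01, -0.05 and -0.16 for sesamin, episesamin and sesamolin, beside -0.01, -0.02 and -0.01 over all genes.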

How the data were processed

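Liver RNA of 20 rats (5 per diet, 1 Affymetrix array each) was labelled as biotin cRNA. The values deposited by the authors are linear intensity values, 1 per probe set and array, with software and scaling not given in the sources used here. Quantile normalization was applied, 5.85 was added and log2 taken. Probe sets had to lie above 17.8 on at least 5 arrays, and each gene was read from its brightest set by mean. This gave 11576 genes, fitted with limma 3.58.1 in R 4.3.3 (4 group means, 16 residual degrees of freedom, Benjamini-Hochberg adjustment per comparison, calls at 0.05). The number of arrays limits the precision. Correlations used log2 deviations from diet means with 100000 permutations of rats within diets. No 2 columns were identical. The fit was tested on simulated data. Of the array's probe sets, 436 had several symbols and 9831 were not listed, and both were left out. The genes, lists and tests were chosen with earlier results of these data known. Genes named from lists were chosen by adjusted p (up to 4 per list) or level (up to 2), and likeness is the absolute r over rats. Alternatives covered normalization, offset, filter, probe set choice, fit, replicate block, array covariates and leaving out arrays, and the relations with state genes were chosen after seeing the data.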

Additional observations from a re-analysis of the deposited data

Results flagged for a closer look

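In 2 of 40 groups of 5 rats (10 genes by 4 diets) a rat stood apart from the others of its diet by Dixon's ratio, and chance alone marks about 1 group in 20. Per1 in sesamolin rat 5 was 77.0 against 17.9 in the next rat (ratio of gap to range 0.788). Tef in sesamin rat 5 was 76.4 against 96.3 in the next rat (ratio 0.723).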

How the results depend on the processing

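The count of clock genes called was 0 in every comparison under all 16 other settings run (15 for the F test) and without each array in turn. The lowest limma adjusted p over 2154 such values was 0.118, for Tef in sesamolin against lignan-free livers without the 6 dim arrays (log2 -0.45). From the fit of all probe sets these values took only the set chosen in the main fit. Another Clock set had a limma adjusted p of 0.0699 there. In 134 of the 2154 values the sign differed from the main value. The count of genes above the 90th percentile of spread was 6, and 5 to 6 without each array. The 8 pairs called became 5 without the dim arrays and 4 without the 4 arrays numbered 1, and 6 to 8 without each array in turn. The 4 pairs of Nr1d2, Per2, Cry1 and Nr1d1 with the largest r passed in all 28 settings (highest permutation adjusted p 0.0393). The 15 relations with state genes became 40 with no normalization between arrays, 24 with the replicate number as a block, 0 without the dim arrays, 0 without the arrays numbered 1 and 4 to 22 without each array. Cry1 with Fos changed sign where another probe set stood for Fos, in 7 of 27 settings: r was -0.29 with median scaling, -0.45 without the arrays numbered 1, and -0.42 to 0.82 without each array. Dbp with Csnk1d was 0.0554 with no normalization, and the cause was not tested. A permutation within the 6 dim arrays was not run, since diets held 1 or 2 of them.

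The labels do not say what a replicate number marks, so the main fit did not treat the numbers as pairs. Over all genes, same-numbered arrays of different diets correlated above 0.1 in 10 of 30 cases, against 2 of 120 for other numbers (median r 0.03 and -0.01). Of the 20 arrays, 10 matched best with their own number, so arrays of a number were alike in part. Over the clock genes alone the median r was 0.34 for the same number and -0.07 for others. All 4 arrays numbered 1 lay above their diet means for Per2 and Cry1 (by 0.98 and 0.68 on average) and below for Nr1d1 and Nr1d2 (-1.05 and -0.52), and all 4 numbered 3 the reverse (-0.96, -0.57, 0.92 and 0.63). The deviations of these genes thus followed the number in part, which permutation within diets does not take up. With the number as a block, 0 clock genes and 6 pairs were called, without Cry1 and Per2 against Nr1d1.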
